A study of Mus musculus with 12 samples.

Results

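The genes described here are 9 members of the vascular endothelial growth factor (VEGF) system of the mouse: the receptor genes Kdr, Flt1 and Flt4, the coreceptor genes Nrp1 and Nrp2, and the ligand genes Vegfa, Vegfb, Vegfc and Pgf. They were listed by name, with earlier results of these data known. Each was read from the probe set that carried only its symbol and had the highest mean over all arrays. Each had 1 such probe set, so that 9 of the 19938 genes measured were followed. The samples were 12 Affymetrix gene arrays of total RNA, 3 for each of 4 groups: undifferentiated mouse induced pluripotent stem cells (iPSCs) at day 0, iPSCs left to differentiate spontaneously until day 4, iPSCs taken through an optimized cardiac differentiation until day 4, and a day 4 population enriched for cardiac progenitor cells (CPCs) by sorting cells with FLK1 and PDGFRα on their surface. The labels name no strain or genotype, and describe the cardiac cultures further only as EB + ck, an abbreviation they do not explain. Separate cultures or sorts are not stated for the replicates, so p-values reflect the spread among these arrays alone, some or all of which may be technical. The iPSC label was borne out by the 12 pluripotency markers, whose mean log2 signal was 10.25 to 10.5 on the day 0 arrays and 7.7 to 9.24 on the 9 day 4 arrays.

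VEGF signalling starts when a secreted, dimeric ligand binds receptor tyrosine kinases on the cell surface. VEGF-A, from Vegfa, binds VEGFR1 (Flt1) and VEGFR2 (Kdr, also called FLK1); VEGF-B (Vegfb) and placental growth factor (Pgf) bind VEGFR1; VEGF-C (Vegfc) binds VEGFR3 (Flt4) and, after processing, VEGFR2. VEGFR2 transmits most of the growth and migration signal, while VEGFR1 binds VEGF-A tightly, signals weakly and also exists as a secreted form that holds ligand away from VEGFR2. Neuropilins 1 and 2 (Nrp1, Nrp2) have no kinase domain and act as coreceptors for VEGFs and as receptors for class 3 semaphorins. In the embryo and in differentiating stem cells, Kdr marks the mesoderm from which blood, vessels and heart arise, before mature endothelium is present.

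Values are log2 signals after robust multi-array averaging (RMA), a step that corrects background and equalises the arrays, so that a difference of 1 is a factor of 2. They are given as mean ± SD over 3 arrays. A gene was called changed when its difference in a limma fit of all 12 arrays had a Benjamini-Hochberg adjusted p under 0.05 over all genes and a size of at least 1. Array medians lay between 6.09 and 6.26. No background level was measured, so signals near or below these medians are not shown to exceed background. Kdr lay below the array median on 5 arrays, Nrp1 on 6, Vegfc on 4, Pgf on 6 and Flt4 on 9. Other values lay just above it, as did Flt1 at day 0, by 0.03 to 0.34. Changes from such a base may be understated.

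Sorted CPC replicates 2 and 3 stood apart from sorted replicate 1 and went against their gate in RNA: Kdr (FLK1) was 6.25 and 6.03 in them, and Pdgfra (PDGFRα) was 8.47 and 8.29, beside 10.23 and 11.13 in replicate 1. Cardiac replicate 1 was likewise far below the other cardiac arrays in Kdr. The 3 libraries are therefore called the libraries labelled sorted, and the differences of the members from day 0 in these groups are also given without these arrays where the value moved by over 1.5 times or a call changed.

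The receptors Kdr, Flt1, Nrp1 and Nrp2 rose in spontaneous cells relative to day 0, by 2.8-fold for Flt1, 2.82-fold for Nrp2, 16.2-fold for Nrp1 and 25.4-fold for Kdr. Flt1 was the member that also rose in the cardiac cultures (3.36-fold) and in the libraries labelled sorted (2.96-fold). The ligand genes and Flt4 were not called in any comparison. Thus 4 of the 9 members were called higher and 0 lower in spontaneous cells, where 3.57% of all genes were called and 1.99% were called higher. In the cardiac cultures 1 of 9 was called, where 2.2% of all genes were called and 1.26% higher. In the sorted libraries it was 1 of 9, where 2.11% of all genes were called and 0.787% higher. Without cardiac replicate 1 the cardiac count was 3, with 3.28% of all genes called, and without sorted replicates 2 and 3 the sorted count stayed at 1, with 4.13% called. The calls added in the cardiac cultures were those of Kdr and Nrp1. Cardiac replicate 1 was set apart by its low Kdr, the value of a member, and was low in Nrp1 too. The count of 3 is therefore no separate test of the members, and its share of all genes is no fair yardstick for it. The sorted count without replicates 2 and 3 rests on 1 sorted array. The median difference of the 9 genes from day 0 was 0.42, 0.57 and 0.3 in the spontaneous, cardiac and sorted groups, beside -0.03, -0.05 and 0.03 over all genes. Arrays of spontaneous cells lay wholly above day 0 for 6 members and wholly below for 1, beside 19.4% and 21.6% of all genes. For cardiac cultures it was 4 above and 0 below, beside 12.8% and 16.2%, and for sorted libraries 2 above and 1 below, beside 10.2% and 11.3%.

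**Figure D1:**
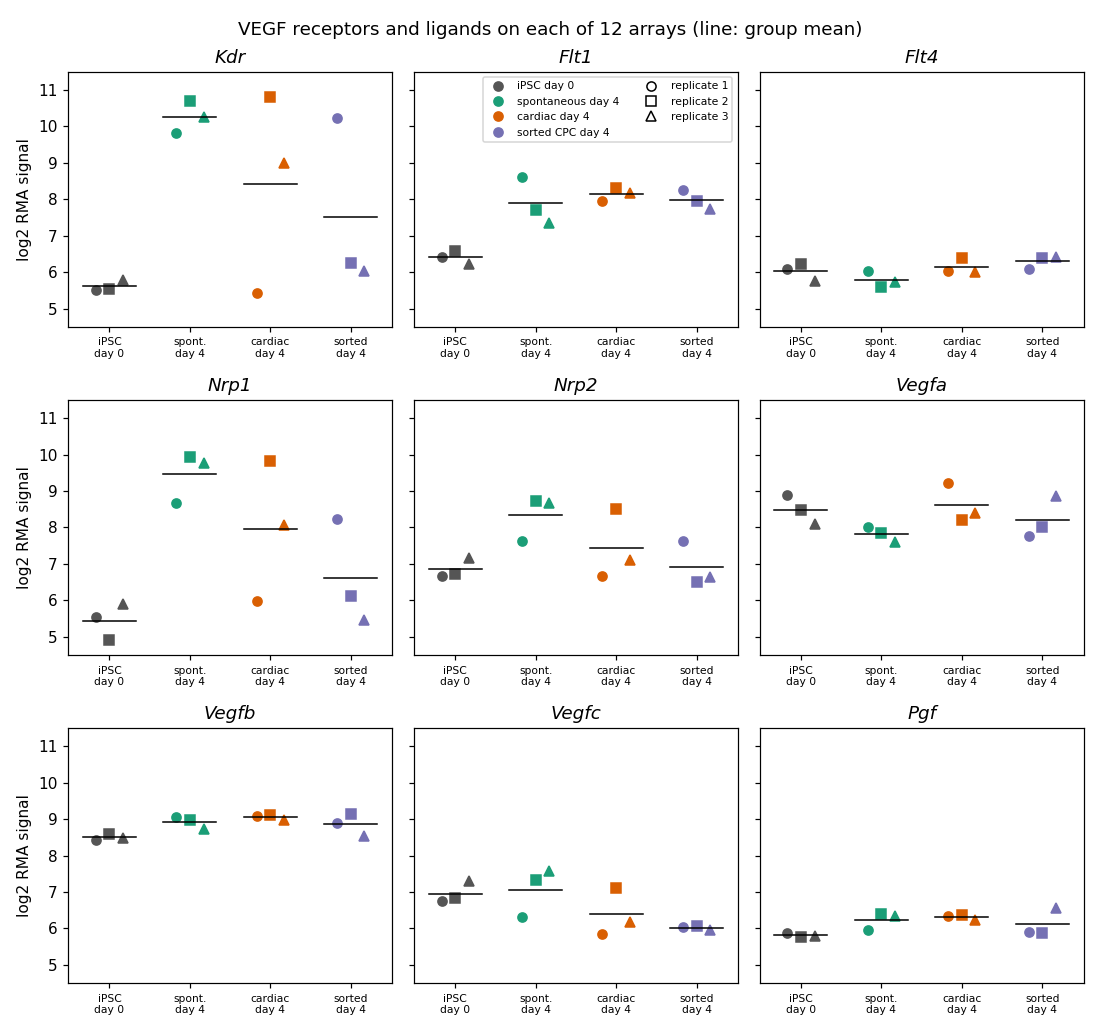
Log2 RMA signal (vertical axis) of the 9 VEGF genes on each of the 12 arrays, grouped along the horizontal axis by sample group; marker shape gives the replicate number and the line the group mean. Kdr and Nrp1 are spread over several log2 units within the cardiac and sorted groups (Kdr SD 2.74 and 2.36), whereas all Flt1 points of day 4 lie at 7.35 or above and all those of day 0 at 6.58 or below.

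Kdr, the gene of the receptor FLK1 used in the sort, measured 5.50, 5.54 and 5.78 in the 3 day 0 arrays. Spontaneous replicates 1, 2 and 3 had 9.83, 10.71 and 10.27, cardiac replicates 5.42, 10.81 and 9.01, and the libraries labelled sorted CPC 10.23, 6.25 and 6.03. Only the spontaneous group was high throughout, cardiac replicate 1 was below every day 0 array, and sorted replicates 2 and 3 were just above them. Surface FLK1 protein was not measured on these arrays. These are bulk samples, in which fewer cells of a type and less RNA per cell cannot be told apart.

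In order of group means, Kdr ran from 5.61 ± 0.15 at day 0 through 7.50 ± 2.36 in the sorted group and 8.41 ± 2.74 in cardiac cultures to 10.27 ± 0.44 in spontaneous cells. No 2 neighbours in this order differed beyond their spread. The difference of spontaneous cells from day 0 was 4.66 ± 1.17 (SE, 95% interval 2.13 to 7.20, limma adjusted p = 0.0246). Leaving out any 1 of the 6 arrays of this comparison ended the call (adjusted p = 0.0544 to 0.094). The SD of Kdr and that of Nrp1 exceeded 1 in the cardiac group, as for 0.577% of all genes, and in the sorted group, as for 1.15%. The shared fit pools the spread of all 4 groups, and with only these 6 arrays fitted the adjusted p was 1.3e-05. Kdr differed from day 0 by 2.80 ± 1.17 (SE) in cardiac cultures (adjusted p = 0.182) and by 1.9 ± 1.17 (SE) in the sorted libraries (adjusted p = 0.427). Without cardiac replicate 1 the first was 4.30 (adjusted p = 0.0169), and without sorted replicates 2 and 3 the second was 4.62 (adjusted p = 0.0671, with the lone sorted array assumed to vary as the other groups did). Those arrays stand apart by Kdr itself, so the changed values are no separate test of Kdr.

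Nrp1, the coreceptor gene with the widest range after Kdr, split the arrays into the same high and low sets as Kdr. It measured 5.54, 4.90 and 5.89 at day 0, 8.67, 9.94 and 9.76 in spontaneous cells, 5.98, 9.82 and 8.08 in cardiac cultures and 8.24, 6.13 and 5.46 in the sorted libraries. The largest gap in its ordered values, 1.95, lay between 6.13 and 8.08, with 6 arrays on either side; the largest gap in Kdr, 2.75, lay between 6.25 and 9.01, also with 6 on either side. The upper 6 arrays were the same 6 for both genes: the 3 spontaneous arrays, cardiac replicates 2 and 3, and sorted replicate 1. Within the lower 6 the order was not shared: cardiac replicate 1 was lowest in Kdr but above all day 0 arrays in Nrp1.

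Nrp1 rose by 4.01 ± 0.82 (SE, 95% interval 2.23 to 5.80, limma adjusted p = 0.00995) in spontaneous cells. This call held with any 1 array left out, though narrowly without spontaneous replicate 2 (adjusted p = 0.05 after rounding). In cardiac cultures Nrp1 differed from day 0 by 2.52 ± 0.82 (SE, adjusted p = 0.0917), with every cardiac array above every day 0 array. That difference was called without cardiac replicate 1 (3.51, adjusted p = 0.0103) and, at the threshold, without sorted replicate 1 (adjusted p = 0.0498). In the sorted libraries the Nrp1 difference was 1.17 ± 0.82 (SE, adjusted p = 0.496), and 2.80 without replicates 2 and 3. Cardiac replicate 1 and sorted replicates 2 and 3 stand apart by Kdr. Nrp1 shared the high and low sets of Kdr, so values without those arrays are no separate test of Nrp1. Of the 2 genes, only Nrp1 passed a moderated F test over the 4 groups (adjusted p = 0.0394, against 0.105 for Kdr). That test was passed by 5.86% of all genes.

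**Figure D2:**
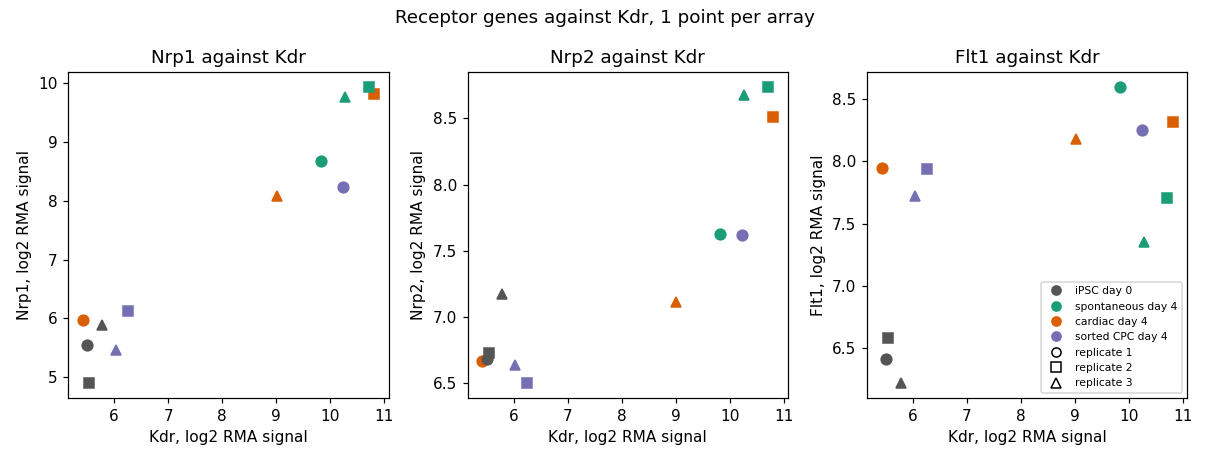
Log2 RMA signal of Nrp1, Nrp2 and Flt1 (vertical axes) against that of Kdr (horizontal axes), with 1 point per array, colour for the group and marker shape for the replicate. The 6 arrays with Kdr of at least 9.01 are also the 6 with Nrp1 of at least 8.08, while day 4 arrays with low Kdr keep Flt1 at 7.72 to 7.95, above the 6.58 reached at day 0.

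Nrp2, the other neuropilin gene, measured 6.68, 6.73 and 7.17 at day 0, 7.63, 8.74 and 8.68 in spontaneous cells, 6.67, 8.51 and 7.11 in cardiac cultures and 7.62, 6.50 and 6.64 in the sorted libraries. Spontaneous replicates 2 and 3 and cardiac replicate 2 stood highest, and cardiac replicate 1 and sorted replicates 2 and 3 lay at or below the day 0 arrays. The rise in spontaneous cells was 1.49 ± 0.44 (SE, 95% interval 0.55 to 2.44, limma adjusted p = 0.0481), with spontaneous arrays all above day 0. This call was lost without 7 of the 12 arrays, namely any day 0 array, spontaneous replicate 2 or 3, cardiac replicate 3 or sorted replicate 2 (adjusted p = 0.0553 to 0.179). Nrp2 differed from day 0 by 0.58 in cardiac cultures (adjusted p = 0.442) and by 0.06 in sorted libraries (adjusted p = 0.962), both with an SE of 0.44. The cardiac value became 0.95 when cardiac replicate 1 was left out (adjusted p = 0.204) and ran from 0.03 to 0.95 over all arrays left out in turn. The sorted value became 0.76 when sorted replicates 2 and 3 were left out (adjusted p = 0.493).

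Flt1, the gene of the tight-binding receptor VEGFR1, behaved otherwise. It measured 6.41, 6.58 and 6.22 at day 0, 8.60, 7.71 and 7.35 in spontaneous cells, 7.95, 8.32 and 8.18 in cardiac cultures and 8.25, 7.94 and 7.72 in the sorted libraries. All 9 day 4 arrays exceeded all 3 day 0 arrays, which was true of 4.65% of all genes and, among the 9 members, of Flt1 alone. The day 4 arrays with low Kdr were not low in Flt1: cardiac replicate 1 had 7.95 and sorted replicates 2 and 3 had 7.94 and 7.72, within the 7.35 to 8.60 of the spontaneous group.

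The Flt1 differences from day 0 were 1.48, 1.75 and 1.57 in spontaneous, cardiac and sorted samples, each with an SE of 0.26 (limma adjusted p = 0.00439, 0.00223 and 0.00433). These 3 calls held under every alternative run, including each array left out and the sorted pair left out (1.84, adjusted p = 0.0133). The 3 comparisons share the day 0 arrays and are not independent of each other. By the same rule, 0.527% of all genes were called higher in each of the 3 groups. In order of means, Flt1 ran from 6.40 ± 0.18 at day 0 to 7.89 ± 0.64, 7.97 ± 0.26 and 8.15 ± 0.19 in spontaneous, sorted and cardiac samples, and the day 4 neighbours did not differ beyond their spread. The probe set gives 1 value for the gene, so membrane-bound and secreted forms of VEGFR1 cannot be told apart.

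Flt4, the gene of the VEGF-C receptor VEGFR3, stayed between 5.59 and 6.41 on all arrays, around the array medians. It measured 6.08, 6.23 and 5.75 at day 0, 6.04, 5.59 and 5.72 in spontaneous cells, 6.03, 6.38 and 6.01 in cardiac cultures and 6.08, 6.39 and 6.41 in the sorted libraries. Its differences from day 0 were -0.24, 0.12 and 0.27, each with an SE of 0.17 (adjusted p = 0.416, 0.688 and 0.423). The last was 0.05 without sorted replicates 2 and 3. The intervals of these signals reached from -0.60 to 0.63. At levels not shown to exceed background, they cannot exclude a change of a factor of 2 in Flt4 RNA.

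**Figure D3:**
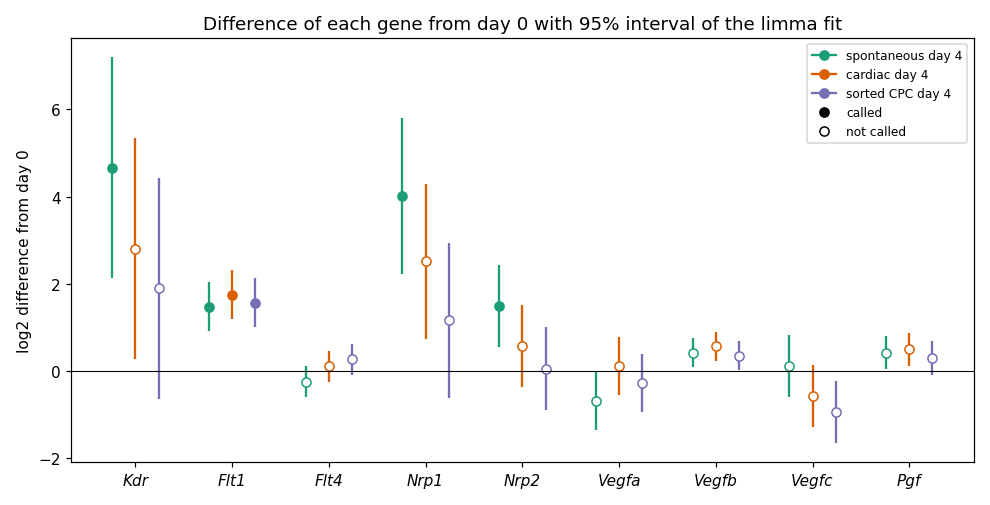
Log2 difference of each gene from day 0 (vertical axis) in spontaneous, cardiac and sorted samples, as the limma estimate (circle, filled where called) with its 95% interval (line). Flt1 is filled in all 3 groups with differences of 1.48 to 1.75, Kdr, Nrp1 and Nrp2 are filled in spontaneous cells only, and the ligand genes lie between -0.93 and 0.57.

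The sequences just upstream of Kdr, Nrp1 and Flt1 are shown because the first pair shared their upper arrays and the third did not. Each run is the 250 bases before a RefSeq transcript start in GRCm38.p6, read 5′ to 3′ on the strand of the gene: chr5:75978456-75978705 on the minus strand for Kdr, chr8:128358823-128359072 on the plus strand for Nrp1 and chr5:147726012-147726261 on the minus strand for Flt1. For all 3 genes the RefSeq gene begins further upstream, so that other transcripts may cover these bases. Capitals mark GGAA, the core bound by ETS transcription factors, or its reverse complement TTCC.
Kdr: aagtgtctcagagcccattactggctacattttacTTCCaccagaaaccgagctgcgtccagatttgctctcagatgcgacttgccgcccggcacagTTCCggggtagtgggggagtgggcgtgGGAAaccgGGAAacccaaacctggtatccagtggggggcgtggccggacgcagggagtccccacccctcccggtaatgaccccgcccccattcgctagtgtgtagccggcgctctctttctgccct
Nrp1: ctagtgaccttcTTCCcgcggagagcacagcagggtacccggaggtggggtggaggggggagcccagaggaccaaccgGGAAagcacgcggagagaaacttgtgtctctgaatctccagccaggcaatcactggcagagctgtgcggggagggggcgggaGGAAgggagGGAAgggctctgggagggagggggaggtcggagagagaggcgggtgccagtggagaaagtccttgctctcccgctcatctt
Flt1: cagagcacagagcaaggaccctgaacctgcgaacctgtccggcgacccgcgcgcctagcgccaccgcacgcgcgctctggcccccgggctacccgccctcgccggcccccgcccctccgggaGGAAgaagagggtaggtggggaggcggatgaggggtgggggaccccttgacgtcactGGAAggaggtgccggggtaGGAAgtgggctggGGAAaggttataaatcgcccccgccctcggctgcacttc
Each of the 3 holds 4 matches, beside a median of 3 over 27025 promoters of the same length, of which 93.4% hold at least 1. Nrp2 holds 1. GATA or its reverse complement TATC, the core of GATA factors, occurs once upstream of Kdr and in none of the windows of Nrp1, Flt1 and Nrp2, beside 54.1% of promoters with a match. The hypoxia core ACGTG or CACGT occurs in none of these 4 windows, beside 16.6% of promoters. All 9 members had an entry, and a match is a description of the letters and shows no binding.

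Among the ligand genes, Vegfa, the main ligand of VEGFR2, did not pass in any comparison. It measured 8.89, 8.48 and 8.10 at day 0, 8.0, 7.84 and 7.60 in spontaneous cells, 9.21, 8.21 and 8.41 in cardiac cultures and 7.77, 8.0 and 8.87 in the sorted libraries. Spontaneous arrays all lay below the day 0 arrays and below the cardiac arrays, while the other groups overlapped. The difference of spontaneous cells from day 0 was -0.68 ± 0.31 (SE, 95% interval -1.34 to -0.01, unadjusted p = 0.0463 and adjusted p = 0.199 in limma), and cardiac cultures were 0.79 ± 0.31 (SE) above spontaneous cells (unadjusted p = 0.0227, adjusted p = 0.999). The cardiac and sorted differences from day 0 were 0.12 and -0.27 (adjusted p = 0.833 and 0.702). In the fit without cardiac replicate 1 the first was -0.18, and without sorted replicates 2 and 3 the second was -0.72 (adjusted p = 0.276).

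Vegfa is a classical target of the hypoxia-inducible factors, and 23 genes of oxygen sensing and hypoxia response were set beside it. Against day 0, 0 rose and 1 fell in spontaneous cells, 1 rose and 0 fell in cardiac cultures, and 0 changed in the sorted libraries. Of all genes, 3.57%, 2.2% and 2.11% were called there. At an unadjusted p under 0.05 in limma lay 9, 4 and 5 genes of the list, beside 24%, 22.4% and 19.3% of all genes. The fallen gene was Pdk1, a kinase that keeps pyruvate out of mitochondria (-1.64 ± 0.35 SE, adjusted p = 0.012). The risen gene was Ddit4, an inhibitor of mTORC1 (1.29 ± 0.29 SE, adjusted p = 0.0226). Without cardiac replicate 1 no gene of the list was called in cardiac cultures, and 1 fell in the sorted library without replicates 2 and 3. The lactate dehydrogenase gene Ldha, one of the uncalled genes with the highest means, ranged from 11.47 to 12.46 over all arrays, and the glycolytic kinase gene Pgk1 from 11.47 to 12.31.

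Between cardiac and spontaneous cells the median of these 23 genes was 0.45, beside -0.02 over all genes, and 12 had an unadjusted p under 0.05, as 3.73% of all genes did, but limma called 0. Between sorted and cardiac libraries the median was -0.37, beside 0.03, with 9 at an unadjusted p under 0.05, beside 15.7% of all genes, and 0 called. The mean level of the list was 8.70 to 9.0 at day 0, 8.37 to 8.82 in spontaneous cells, 8.80 to 9.32 in cardiac cultures and 8.29 to 8.70 in the sorted libraries. Cardiac replicate 1 was highest in both Vegfa (9.21) and the list (9.32). Sorted replicate 3 had the third-highest Vegfa value, 8.87, with the lowest list mean, 8.29.

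Visceral endoderm, an extraembryonic tissue, was followed through its markers on the same arrays. Of 9 measured, 4 (Ttr, Apob, Apoa1 and Afp, which encode secreted carrier proteins) rose in cardiac cultures relative to day 0. There 1.26% of all genes were called higher. In spontaneous cells and sorted libraries 0 rose. In each of these, 1 had an unadjusted p under 0.05 in limma, beside 24% and 19.3% of all genes. The mean of this list was 6.60 to 6.81 at day 0, 6.86 to 7.92 in spontaneous cells, 7.98 to 9.67 in cardiac cultures and 6.94 to 7.91 in sorted libraries, with cardiac replicate 1 again highest. Without that array 3 still rose. No marker of this list was below the array median on any cardiac array. Its part in the Vegfa values was not tested.

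**Figure D4:**
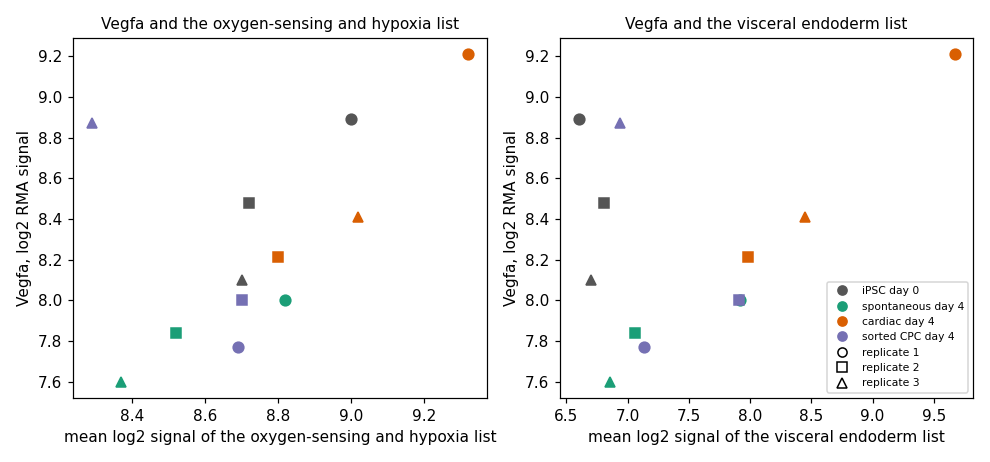
Vegfa log2 RMA signal (vertical axes) against the mean log2 signal of 23 oxygen-sensing and hypoxia genes (left) and of 9 visceral endoderm markers (right), with 1 point per array, colour for the group and marker shape for the replicate. Cardiac replicate 1 is highest on all axes (Vegfa 9.21, list means 9.32 and 9.67), while sorted replicate 3 has a Vegfa value of 8.87 at the lowest hypoxia list mean, 8.29.

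Vegfb, a ligand of VEGFR1, was called in no comparison. It measured 8.43, 8.59 and 8.49 at day 0, 9.06, 8.99 and 8.72 in spontaneous cells, 9.09, 9.12 and 8.99 in cardiac cultures and 8.89, 9.13 and 8.55 in the sorted libraries. Spontaneous and cardiac arrays all exceeded day 0, and 1 sorted array overlapped it. In cardiac cultures the difference was 0.57 ± 0.15 (SE, 1.48-fold, limma adjusted p = 0.0478), which passed the p threshold, as 6.17% of all genes did there, but not the minimum difference. It was 0.42 in spontaneous cells and 0.35 in sorted libraries (adjusted p = 0.109 and 0.231). Without cardiac replicate 1 the cardiac difference was 0.55 and no longer passed the p threshold (adjusted p = 0.0789).

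Pgf, the second ligand specific to VEGFR1, measured 5.88, 5.77 and 5.78 at day 0, 5.95, 6.40 and 6.34 in spontaneous cells, 6.34, 6.37 and 6.22 in cardiac cultures and 5.91, 5.87 and 6.56 in the sorted libraries. The spontaneous and cardiac arrays were all above day 0, and the sorted arrays overlapped it. The differences were 0.42, 0.50 and 0.30, each with an SE of 0.18 (adjusted p = 0.163, 0.116 and 0.39), and the last was 0.10 without sorted replicates 2 and 3.

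Vegfc, the ligand of VEGFR3, measured 6.75, 6.83 and 7.29 at day 0, 6.31, 7.32 and 7.57 in spontaneous cells, 5.85, 7.12 and 6.18 in cardiac cultures and 6.05, 6.07 and 5.95 in the sorted libraries. All sorted arrays were below all day 0 and all spontaneous arrays, and sorted replicate 1, with high Kdr, was as low as replicates 2 and 3. The sorted libraries differed from day 0 by -0.93 ± 0.33 (SE, 95% interval -1.65 to -0.22, unadjusted p = 0.0143 and adjusted p = 0.135) and from spontaneous cells by -1.04 ± 0.33 (SE, unadjusted p = 0.00747 and adjusted p = 0.324). Neither passed in limma, and the cardiac difference from day 0 was -0.57 (adjusted p = 0.319), or -0.31 without cardiac replicate 1. Without sorted replicates 2 and 3 the sorted differences were -0.90 and -1.02. The sorted values lay below the array medians, which limits how far the difference can be read.

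Between day 4 groups no member was called, and 0% of all genes were called between cardiac and spontaneous cells and between sorted and cardiac libraries, and 0.00502% between sorted and spontaneous samples. At an unadjusted p under 0.05 the members numbered 2, 0 and 5 of 9 in these comparisons, beside 3.73%, 15.7% and 11.6% of all genes. The 5 were Kdr (-2.77 ± 1.17 SE), Nrp1 (-2.85 ± 0.82 SE), Nrp2 (-1.43 ± 0.44 SE), Vegfc and Flt4 (0.51 ± 0.17 SE), with adjusted p from 0.311 to 0.405. Sorted arrays lay wholly below spontaneous ones for 3 members (Nrp1, Nrp2 and Vegfc) and wholly above for 1 (Flt4), beside 10.2% and 9.44% of all genes. Cardiac arrays lay wholly above spontaneous ones for 1 member (Vegfa) and below for 0, beside 5.23% and 3.77%, and sorted and cardiac arrays overlapped for all 9, beside 7.79% of genes wholly above and 5.3% wholly below. The 95% intervals of the sorted minus cardiac differences reached from -3.44 to 1.63 for Kdr and from -3.13 to 0.43 for Nrp1, so that even large differences were not resolved. Those for Flt1 reached from -0.74 to 0.38. Without sorted replicates 2 and 3, the sorted minus spontaneous differences were -0.04 for Kdr, -1.22 for Nrp1, -0.73 for Nrp2 and 0.30 for Flt4 (adjusted p = 0.992, 0.591, 0.571 and 0.551). Likewise the sorted minus cardiac difference was 1.82 for Kdr (adjusted p = 0.447) and 0.28 for Nrp1 (adjusted p = 0.9), of the opposite sign to the values with all arrays (-0.91 and -1.35). Limma then called 0.0251% and 0.492% of all genes in these comparisons and 0 members.

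The genes most like Kdr over the 12 arrays were ranked by Pearson's r among 174 genes with an SD of at least 1. Predicted loci, Rik clones, small RNA genes and olfactory or vomeronasal receptor genes had been left out. The arrays fall into low and high sets for these genes, so r mainly records that division and is given as an order only. The first 5 were Asb4 (0.99), Klhl6 (0.988), Cxcr4 (0.981), Rftn1 (0.98) and Hmga2 (0.977). Asb4 encodes a SOCS-box protein, Klhl6 a kelch-like protein, Cxcr4 the receptor of the chemokine CXCL12, Rftn1 a lipid raft protein and Hmga2 an architectural chromatin protein. Nrp1 came ninth (0.97). For Nrp1 the first 5 were Prdm6 (0.983), Zcchc12 (0.977), Asb4 (0.973), Kdr (0.97) and Vstm2b (0.966). Asb4 shows the shared pattern, with 5.43 to 5.72 at day 0, 8.51 to 9.35 in spontaneous cells, 5.75, 9.62 and 7.97 in cardiac replicates 1, 2 and 3, and 8.46, 5.92 and 5.88 in the sorted replicates.

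On chromosome 5 Kdr is neighboured by Kit and then Pdgfra among protein-coding genes of RefSeq (GRCm38.p6), and the second is the gene of the other sorted surface protein. Pdgfra was 11.13 in sorted replicate 1 and 8.47 and 8.29 in replicates 2 and 3, beside 8.75 to 9.14 at day 0. Kit, the stem cell factor receptor gene between them, measured 9.02, 9.02 and 8.55 at day 0, 8.42, 7.46 and 7.28 in spontaneous cells, 8.96, 7.97 and 8.78 in cardiac cultures and 7.46, 8.30 and 7.44 in the sorted libraries. It fell in spontaneous cells by 1.15 ± 0.33 (SE, limma adjusted p = 0.0461), while the cardiac and sorted differences of -0.30 and -1.14 were not called (adjusted p = 0.605 and 0.0723). Sorted replicates 1 and 3, with high and low Kdr, were alike in Kit.

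The wider pathway was followed through lists. Of 28 other ligands, receptors and binding partners measured, 1 rose and 1 fell in spontaneous cells, 0 changed in cardiac cultures (10 with an unadjusted p under 0.05 in limma) and 1 fell in sorted libraries, which is 7.14%, 0% and 3.57% of the list beside 3.57%, 2.2% and 2.11% of all genes. Without sorted replicates 2 and 3, 1 rose and 1 fell in the sorted library. The medians were 0.07, 0.07 and 0.06. The risen gene was Efnb2, which encodes the arterial ligand ephrin-B2 and promotes VEGF receptor uptake (1.15 ± 0.29 SE, adjusted p = 0.0235). The fallen gene was Sdc4, a heparan sulphate proteoglycan of the cell surface, by 1.18 in spontaneous cells and by 1.13 in sorted libraries (SE 0.28 in both, adjusted p = 0.0173 and 0.0315). Among uncalled partners with high means, Hspg2, which encodes perlecan, ranged from 8.18 to 9.56 and the semaphorin coreceptor gene Plxna1 from 8.41 to 8.94 over all arrays. Vegfd, the remaining VEGFR3 ligand gene, named after its values were seen, was 6.20 to 6.70 at day 0 and 5.74 to 6.10 at day 4.

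Of 50 measured genes of VEGF receptor signalling, 1 rose and 2 fell in each comparison with day 0, or 6% of the list each time. In spontaneous, cardiac and sorted samples 3.57%, 2.2% and 2.11% of all genes were called, and the list medians were 0.11, 0.10 and 0.01. The same 3 genes were called each time. In the sorted library alone, without replicates 2 and 3, 1 rose and 5 fell. Grb10, an adaptor of receptor tyrosine kinases, rose by 1.27, 1.73 and 1.52 in spontaneous, cardiac and sorted samples (SE 0.19, limma adjusted p = 0.00184, 0.000606 and 0.000893). The zinc finger genes Klf2 and Klf4, which are flow-responsive in endothelium and are also naive pluripotency factors, fell by 2.14 to 2.31. Both are also members of the pluripotency list, of which 8, 7 and 7 of 12 fell in the 3 comparisons. The small GTPase genes Cdc42 and Rac1, uncalled with the highest means, ranged from 10.97 to 11.37 and from 10.07 to 10.58 over all arrays. Plcg1, the phospholipase that binds activated VEGFR2 and was named after its values were seen, differed from day 0 by 0.13, 0.21 and 0.09.

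Markers of endothelial and haemogenic cells numbered 19. Of these, 1 rose and 1 fell in spontaneous cells, and 0 rose and 1 fell in both other groups. The shares called in spontaneous, cardiac and sorted samples were 10.5%, 5.26% and 5.26%, beside 3.57%, 2.2% and 2.11% of all genes. In cardiac cultures 2 rose and 1 fell without cardiac replicate 1, and without sorted replicates 2 and 3, 0 rose and 2 fell in the sorted library. The risen gene was Sox17, which is also an endoderm factor (1.04 ± 0.18 SE, adjusted p = 0.00461). The fallen gene was Pecam1, which pluripotent cells also express; it was 7.81 to 8.85 at day 0 and 5.45 to 7.40 at day 4. The endothelial cadherin gene Cdh5 stayed at 5.48 to 6.53 and the angiopoietin receptor relative Tie1 at 5.38 to 5.93 over all arrays. Etv2, the ETS factor that starts the vascular programme, was 6.17 to 6.52 at day 0 and 7.02, 7.48 and 7.87 in spontaneous replicates. It was 6.30, 8.48 and 7.30 in cardiac and 6.97, 6.29 and 6.60 in sorted replicates (adjusted p from 0.113 to 0.798 against day 0). The 6 arrays with the highest Etv2 were the 6 with the highest Kdr. The haemogenic factor gene Lmo2 was 6.67 to 7.17 at day 0, 7.53, 8.51 and 8.89 in spontaneous, 7.05, 9.28 and 8.16 in cardiac and 7.48, 7.22 and 7.50 in sorted replicates, and was not called (adjusted p = 0.0674 in spontaneous cells). Fli1, another ETS factor gene, was 5.63 to 5.91 at day 0, 5.97, 6.69 and 6.52 in spontaneous, 5.73, 6.75 and 6.13 in cardiac and 6.16, 5.27 and 5.74 in sorted replicates, again highest on the same 6 arrays. Not all genes of the list were so ordered. Sox7 was highest in cardiac replicate 1 (8.38), where Kdr was lowest. Eng was 8.24 to 8.44 at day 0 and 7.20 to 8.08 at day 4. Cdh5, Tie1, Etv2, Lmo2, Fli1, Sox7 and Eng were named after their values were seen, so the arrays shared with Kdr are no result about the list. The mean of the list was 6.58 to 6.62 at day 0 and 6.24 to 6.65 at day 4, and that of 9 blood markers was 5.60 to 5.87 over all arrays, with 0 called (1, 1 and 2 with an unadjusted p under 0.05).

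Markers of primitive streak and nascent mesoderm moved with Kdr in part. Of 11, 5 rose in spontaneous cells and 2 each in the cardiac and sorted groups, and 0 fell. That is 45.5%, 18.2% and 18.2% of the list, beside 3.57%, 2.2% and 2.11% of all genes called. In cardiac cultures 6 rose without cardiac replicate 1, where 3.28% of all genes were called. That array stands apart by Kdr itself, so the higher count is no separate test of a link with Kdr. The list mean was 6.59 to 6.67 at day 0 and 8.47 to 8.68 in spontaneous cells. It was 6.90, 9.04 and 8.36 in cardiac replicates 1, 2 and 3, and 9.56, 8.26 and 7.35 in the sorted replicates. Cardiac replicate 1, with the lowest Kdr, thus also had the lowest mesoderm mean of day 4. Sorted replicate 2, with a Kdr value of 6.25, had a list mean of 8.26, just below the spontaneous arrays. Genes of the list differed in that array. Mesp1 was 6.06, beside 5.67 to 6.03 at day 0, and Fgf8 was 9.3, beside 8.57 to 9.06 in spontaneous cells. Both were named after their values were seen. Of 11 cardiac progenitor markers, 3, 2 and 0 rose in spontaneous, cardiac and sorted samples. The list mean was 7.61 in sorted replicate 1 and 6.68 and 6.97 in replicates 2 and 3, beside 6.80 to 6.91 at day 0. This list includes Pdgfra, by which replicates 2 and 3 stand apart, so its mean is not independent of that split. Of 5 neural markers 1 rose in each group and 2, 1 and 1 fell, and of 8 fibroblast and feeder cell markers 0 rose and 2, 2 and 1 fell. The mean of the fibroblast and feeder list was 6.71 to 7.26 at day 0 and 6.29 to 6.53 at day 4. Its part in the differences of the members from day 0 was not tested. The shares of all genes given above apply to these lists too. Every list count without sorted replicates 2 and 3 rests on 1 sorted array, assumed to vary as the other groups did. The part of these cell types in the receptor values was not tested.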

How the data were processed

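The 12 RNA samples were hybridised to Affymetrix gene arrays. Per the submitters' processing notes, the authors ran RMA in Affymetrix Expression Console 1.3.1, and the deposited values are taken to be its log2 output from their range. A genome build for the probes is not stated in the notes. Of 35557 probe sets, 21789 carried 1 gene symbol, 1621 several and 12147 none in the platform table. Probe sets with several symbols or none were left out. For 19938 genes the probe set with the highest mean was kept (999 genes had several). Values stayed within 1.87 to 13.87.

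Group means were fitted to all 12 arrays with limma 3.58.1 in R 4.3.3 (lmFit, 6 contrasts, eBayes with an intensity trend, 8 residual and 5.01 prior degrees of freedom). Scripts were tested on simulated data. The number of arrays limits the precision. RMA quantile normalization hides any change of total RNA. No 2 arrays were identical (highest correlation 0.9966).

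The members, gene lists and alternatives were chosen with earlier results of these data known. Named from each list were up to 4 called genes per comparison with day 0 and 2 uncalled genes with the highest means, or genes said to be named after their values were seen. Promoter sequences are RefSeq's (GRCm38.p6). Alternatives were the replicate block, 2 other prior variances, a dim-gene filter (12320 genes kept), probe set means, 2 scalings, only the arrays compared, no minimum difference, and arrays left out. List counts without cardiac replicate 1 and without sorted replicates 2 and 3 were added after seeing the data.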

Additional observations from a re-analysis of the deposited data

How the results depend on the processing

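The count of members called in spontaneous cells against day 0 was 4 and became 2 with a robust prior variance, which ended the calls of Kdr (adjusted p = 0.078) and Nrp2 (adjusted p = 0.0871); with 1 array left out it was 2 to 4. In cardiac cultures it was 1 and became 2 with no minimum difference, through Vegfb, and 1 to 3 with 1 array left out (3 without cardiac replicate 1, 2 without sorted replicate 1). The cause was not tested. The counts of the other 4 comparisons kept their values within 1.5 times under all alternatives run. The labels do not say whether replicate numbers pair the arrays, and the values did not settle it. Of 18 pairs with the same number, 6 correlated above 0.1 in their deviations (-0.382 to 0.307). Of 12 arrays, 7 correlated best with their own number. With the replicate block the counts against day 0 were 3, 1 and 1, and Nrp2 lost its call in spontaneous cells (adjusted p = 0.0616), as it did without the intensity trend (adjusted p = 0.0544).

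Differences that changed sign were not called with all arrays. Without sorted replicates 2 and 3, the sorted minus cardiac differences were 1.82 for Kdr, 0.10 for Flt1, -0.06 for Flt4, 0.28 for Nrp1 and 0.19 for Nrp2, and the sorted minus spontaneous difference of Vegfa was -0.04. Repeated quantile normalization gave 0.03 for Vegfb between sorted and spontaneous samples. With 1 array left out, the spontaneous minus day 0 difference of Vegfc ran from -0.14 to 0.49. The cardiac minus day 0 differences ran from -0.02 to 0.22 for Flt4 and from -0.18 to 0.32 for Vegfa. That of Nrp2 between sorted libraries and day 0 ran from -0.29 to 0.27. The cardiac minus spontaneous differences ran from 0.0 to 0.62 for Flt1 and from -0.06 to 0.16 for Pgf. The sorted minus cardiac differences ran from -2.40 to 0.29 for Kdr, -0.89 to 0.03 for Nrp2 and -0.62 to 0.01 for Vegfc. The sorted minus spontaneous differences ran from -0.18 to 0.44 for Flt1, -0.21 to 0.09 for Vegfb and -0.34 to 0.01 for Pgf.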
